A study of Mus musculus with 6 samples.

Results

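The homeostatic chemokines of the lung and their receptors were followed in lung tumors grown with or without bleomycin-induced fibrosis. The set held 10 genes of the 31130 in the count tables, taken by symbol with earlier results of these data known. They comprised 7 ligands, Cxcl12, Cxcl13, Cxcl14, Cxcl15, Cxcl16, Ccl17 and Ccl21a, and 3 receptors, Cxcr4, Cxcr6 and Ccr7. Of these 10 genes, 9 had enough molecules for a test. Ccl21a did not.

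Homeostatic chemokines are small secreted or membrane-bound proteins that are made in resting tissue and place leukocytes within it, in contrast to those induced only by inflammation. CXCL12 acts through CXCR4, CXCL13 through CXCR5, CXCL16 through CXCR6, CCL17 through CCR4, and CCL21 and CCL19 through CCR7. All these receptors couple to inhibitory G proteins. In the lung, stromal and endothelial cells are known sources of CXCL12, lymphatic endothelium of CCL21, epithelium of CXCL15, macrophages and dendritic cells of CXCL16, and dendritic cells of CCL17.

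RNA came from 3 tumors of the lung cancer alone (LC) model and 3 tumors of the lung cancer with interstitial pneumonia (IP + LC) model. All hosts were wild-type female C57BL/6 mice, listed in the methods as 6 to 8 weeks old, and all carried Lewis lung carcinoma (LLC) cells labelled with green fluorescent protein, a mouse lung cancer line injected into the left lung on day 14. Mice of the IP + LC model had received bleomycin, which injures the lung and leads to fibrosis, at 2.0 mg/kg by oropharyngeal aspiration 14 days before the cells, while the study's scheme gives saline for mice of the LC model. Tumor tissue was taken on day 21 and was not sorted. The labels call the samples lung cancer cells, but transcripts of normal lung were abundant in them. The summed level of 8 airway markers, led by Scgb1a1, was 47635 to 57086 counts per 1000000 UMIs (CPM) in the LC tumors and 3488 to 7239.9 CPM in the IP + LC tumors. A unique molecular identifier (UMI) marks 1 captured transcript, so CPM values of different genes can be compared without division by transcript length. In such tissue, fewer cells of a type and less RNA per cell cannot be told apart.

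The libraries held 592733 to 1631066 UMIs, and LC replicate 1 was the smallest. That tumor also stood apart in its profile. Its Pearson's r to the other LC tumors was 0.7999 and 0.840 across genes, which are not independent replicates, against 0.962 between LC replicates 2 and 3. The summed level of the macrophage markers was 2309 CPM in LC replicate 1, above 638 and 867 CPM in the other LC tumors, and that of the proliferation markers was 475 CPM against 109 and 115 CPM. Results are therefore also given without this tumor. A count of 3 UMIs, taken as the limit of detection, equals 1.84 to 5.06 CPM by library and covers counting error only.

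The 10 genes together took 2433, 2598 and 2453 of every 1000000 UMIs in LC replicates 1 to 3, and 1198, 1300.4 and 1578 in the IP + LC tumors. The groups did not overlap. Most of these molecules were Cxcl15. It made up 77.5%, 82.5% and 83.6% of the molecules of the set in the LC tumors and 60.4%, 49.9% and 55.9% in the IP + LC tumors. The share of Cxcl16 was 2.06% to 4.79% in the LC group and 11.6% to 17.2% in the IP + LC group, and that of Cxcl13 was 0.27% to 0.893% and 2.17% to 5.83%.

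**Figure D1:**
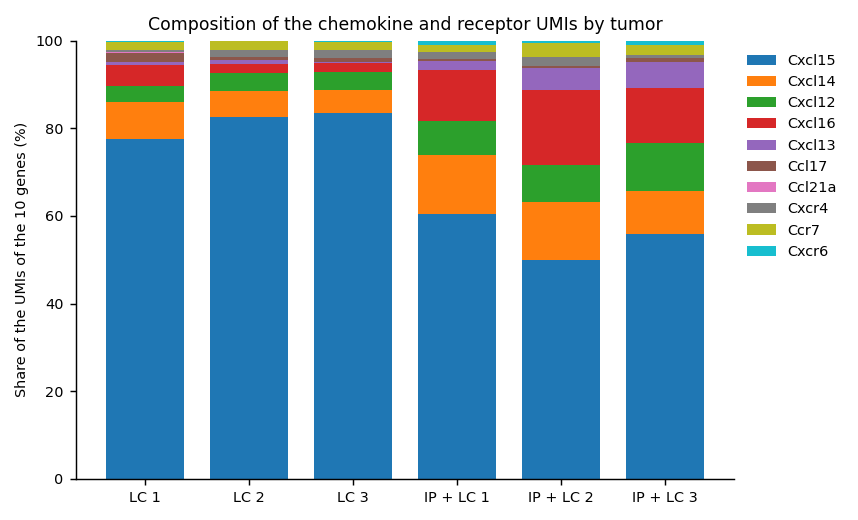
Share of each gene (percent, stacked bars) in the UMIs of the 10 chemokine and receptor genes in each of the 6 tumors. Cxcl15 takes 77.5% to 83.6% of the bar in the LC tumors and 49.9% to 60.4% in the IP + LC tumors.

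Ordered by mean CPM in the LC group, the genes ran Cxcl15, Cxcl14, Cxcl12, Cxcl16, Ccr7, Cxcr4, Ccl17, Cxcl13, Cxcr6 and Ccl21a. In the IP + LC group, the order was Cxcl15, Cxcl16, Cxcl14, Cxcl12, Cxcl13, Ccr7, Cxcr4, Cxcr6, Ccl17 and Ccl21a. The range over 3 tumors of Cxcl15 lay above that of every other gene of the set in both groups. Below it, the ranges of Cxcl12 and Cxcl16 overlapped in the LC group, as did those of each neighboring pair from Cxcr4 to Cxcr6. In the IP + LC group, Cxcl16 overlapped with Cxcl14 and Cxcl14 with Cxcl12, and so did each neighboring pair from Cxcl13 to Ccl17, while Cxcl12 lay narrowly above Cxcl13.

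Between the groups, 2 of the 9 tested genes were higher in the IP + LC tumors (Cxcl13 and Cxcl16) and 4 were lower (Cxcl15, Ccl17, Cxcr4 and Ccr7) at an adjusted p-value below 0.1, the limit of the study (edgeR's quasi-likelihood test, adjusted over all tested genes). Of all 11240 tested genes, 16.8% were called higher and 19.6% were called lower. Cxcl12, Cxcl14 and Cxcr6 did not pass. The median log2 fold change of the 9 genes was -0.16, against 0.02 over all tested genes. All 3 IP + LC tumors lay above the LC tumors for 2 of the 9 genes (21.9% of all tested genes) and below them for 3 (21.2%). These counts describe the 9 genes and do not set them apart from other genes.

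The count of higher genes was 1 when either LC replicate 3 or IP + LC replicate 3 was left out. The count of lower genes stayed at 4 without LC replicate 1, and was 2 without LC replicate 2, LC replicate 3, IP + LC replicate 2 or IP + LC replicate 3. Only 1 gene was lower without IP + LC replicate 1. The counts over all tested genes moved as well. Of them, 1885 were higher and 2203 lower with all tumors, 3324 and 3367 without LC replicate 1, and 897 to 1307 and 1368 to 1830 without any other tumor. The changes of Cxcl15 and Cxcl16 passed in every setting tried. Those of Cxcl13, Ccl17, Cxcr4 and Ccr7 did not.

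**Figure D2:**
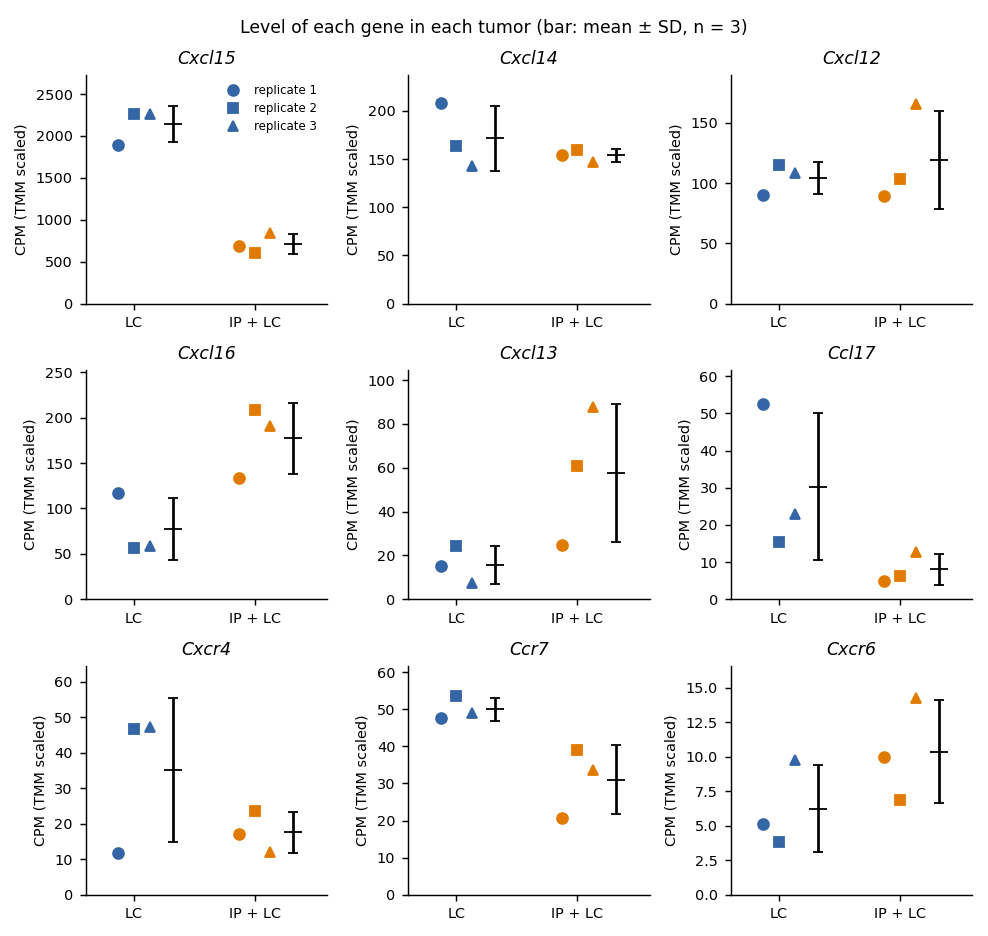
Level of the 9 tested genes in each tumor (CPM after TMM scaling, 1 point per tumor, marker shape by replicate number, black bar mean ± SD, n = 3). The groups do not overlap for Cxcl15, Cxcl16, Cxcl13, Ccl17 and Ccr7, and they overlap for Cxcl14, Cxcl12, Cxcr4 and Cxcr6.

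Cxcl15, also named lungkine, is a neutrophil-attracting chemokine of the mouse airway and alveolar epithelium. The gene (ENSMUSG00000029375) lies on chromosome 5 of GRCm38 from 90794534 to 90803067 on the plus strand. By mean CPM it ranked 55 among the 31130 genes. It had 1897, 2261 and 2264 CPM in LC replicates 1 to 3 (1118, 2958 and 2780 UMIs) and 693, 607 and 841 CPM in the IP + LC tumors (972, 1059 and 1179 UMIs). Every IP + LC tumor lay below every LC tumor, and LC replicate 1 was close to the other LC tumors. The mean was 2141 ± 211 CPM with LC against 713 ± 118 CPM with IP + LC (SD, n = 3), a 3.03-fold lower level (log2 fold change, log2FC, -1.60, standard error 0.23, adjusted p = 0.00182). Without LC replicate 1, the log2FC was -1.68 (adjusted p = 3.94e-07).

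The marker lists of the epithelium moved in the same direction as Cxcl15. All 8 airway markers were lower in the IP + LC group, with Scgb1a1, Cyp2f2 and Scgb3a2 the most abundant. Of the 9 type 2 alveolar markers, led by Sftpc, Sftpa1 and Sftpb, 8 were lower. Their summed level was 36145 to 44197 CPM in the LC tumors and 6567 to 11862 CPM in the IP + LC tumors. Set against the airway markers of the same tumor, Cxcl15 had 38.1 to 47.5 UMIs per 1000 marker UMIs in the LC group and 110.1 to 174 in the IP + LC group. Against the type 2 markers it had 51.2 to 53.7 and 58.4 to 92.4 UMIs per 1000. Thus Cxcl15 was lower in CPM but higher against both marker lists, with no overlap of the groups in either ratio. The part of the epithelial cells in the lower level was not tested.

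Cxcl14, a chemokine of epithelial and stromal cells known to attract monocytes and dendritic cells, was the second most abundant ligand of the LC tumors. The gene (ENSMUSG00000021508) lies on chromosome 13 from 56288643 to 56296551 on the minus strand. Its levels were 209, 164 and 143 CPM in the LC tumors and 155, 159.85 and 147 CPM in the IP + LC tumors. The IP + LC tumors fell within the range of the LC tumors. Its log2FC was -0.16 with a 95% interval from -0.62 to 0.30 (adjusted p = 0.594), and changes within these bounds are not told apart from none. The value was -0.0027 without LC replicate 1. Against the fibroblast markers, Cxcl14 had 62.2, 32.4 and 30.6 UMIs per 1000 in the LC tumors and 71.3, 81.8 and 73.3 in the IP + LC tumors. Inmt, the most abundant of these markers, was 11.6-fold lower with IP + LC, and the ratio without it was not tested.

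Cxcl12, the stromal ligand of CXCR4, retains leukocytes and stem cells and guides them. It (ENSMUSG00000061353) lies on chromosome 6 from 117168535 to 117181367 on the plus strand. It had 89.9, 115 and 108 CPM in the LC tumors and 89.1, 104 and 165 CPM in the IP + LC tumors. The groups overlapped, and IP + LC replicate 3 was the highest tumor. Its log2FC was 0.17 with a 95% interval from -0.43 to 0.77 (adjusted p = 0.672), and its sign turned without IP + LC replicate 3, to -0.11. It was 0.08 without LC replicate 1.

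Most markers of the cells known to make Cxcl12 were lower in the IP + LC tumors, while Cxcl12 itself did not pass. The summed level of 10 fibroblast markers was 3358 to 5046 CPM with LC against 1954 to 2169 CPM with IP + LC. This list was divided. Inmt, Dcn and 5 others were lower, Col1a1 and Col1a2 were higher, and Col3a1 did not pass. All 11 blood endothelial markers were lower, with Calcrl, Cldn5 and Pecam1 the most abundant, and so were 5 of 7 pericyte and smooth muscle markers, led by Acta2, Cnn1 and Myh11. Per 1000 UMIs of the fibroblast markers, Cxcl12 had 26.8, 22.9 and 23.2 UMIs in the LC tumors and 41.1, 53.1 and 82.5 UMIs in the IP + LC tumors. Against the endothelial markers it had 33.3 to 48.8 and 124 to 206 UMIs per 1000, and against the pericyte and smooth muscle markers 112 to 138 and 365.5 to 596. Inmt, the most abundant fibroblast marker, fell from a mean of 2167 to 188 CPM and so weighs on the ratio to that list. That ratio without Inmt was not tested. Which cells made Cxcl12 was not tested.

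Cxcl16 is made as a transmembrane protein that serves as a scavenger receptor and, once shed by the protease ADAM10, as the soluble ligand of CXCR6. The gene (ENSMUSG00000018920) lies on chromosome 11 from 70453983 to 70459984 on the minus strand. It had 117, 56.6 and 58.6 CPM in the LC tumors and 133, 209 and 190.4 CPM in the IP + LC tumors. All IP + LC tumors lay above all LC tumors, with the smallest gap between LC replicate 1 and IP + LC replicate 1. The mean rose from 77.4 ± 34.4 to 177 ± 39.3 CPM (SD, n = 3), 2.34-fold (log2FC 1.23, standard error 0.32, adjusted p = 0.021). The value was 1.62 when LC replicate 1 was left out (adjusted p = 1.25e-05).

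Exons of Zmynd15 on the opposite strand overlap 18.3% of the exonic bases of Cxcl16, and the use of the strand in the counting is not given in the sources used here. Zmynd15 itself had 5, 4 and 4 UMIs in the LC tumors and 9, 43 and 12 UMIs in the IP + LC tumors. Within the LC group, both Cxcl16 and the macrophage markers were highest in LC replicate 1. Of 9 macrophage markers, 4 were higher, C1qa and C1qc among them, and none was lower. C1qb, also among the 3 most abundant, did not pass. Their summed level was 2318 to 2916 CPM in the IP + LC tumors. Cxcl16 had, per 1000 UMIs of these markers, 50.7, 65.2 and 91.95 UMIs in the LC tumors and 57.5, 71.5 and 72.5 UMIs in the IP + LC tumors, so that the groups overlapped. The part of the macrophages in the higher level was not tested.

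Cxcl13 attracts B cells through CXCR5 and is needed for the formation of lymphoid follicles. The gene (ENSMUSG00000023078) lies on chromosome 5 from 95956951 to 95961068 on the plus strand. It had 15.3, 24.5 and 7.33 CPM in the LC tumors (9, 32 and 9 UMIs) and 24.9, 60.7 and 87.7 CPM in the IP + LC tumors (35, 106 and 123 UMIs). The groups did not overlap, but LC replicate 2 and IP + LC replicate 1 were nearly equal. Its log2FC was 1.85, or 3.60-fold (standard error 0.52, adjusted p = 0.0294). Leaving out LC replicate 1 gave 1.83 (adjusted p = 0.00487). The call was lost without LC replicate 3 (1.44, adjusted p = 0.102) and without IP + LC replicate 3 (1.46, adjusted p = 0.1001), and leaving out LC replicate 2 gave a log2FC of 2.46 (adjusted p = 0.0452).

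The B cell markers, and less firmly the receptor of CXCL13, were lower in the IP + LC group. Cxcr5 had 8, 19 and 11 UMIs in the LC tumors and 2, 11 and 9 UMIs in the IP + LC tumors, with a log2FC of -1.34 (adjusted p = 0.0682). Its call was kept in only 2 of 6 fits that left out 1 tumor, with adjusted p-values of up to 0.242, and in 5 of 9 other alternatives. Of 6 B cell markers, 5 were lower in the IP + LC group, and Cd79b and Ms4a1 were the most abundant. The summed level of the list was 217 to 297 CPM with LC against 39.2 to 151 CPM with IP + LC. Among markers of follicular dendritic cells, Fcer2a was lower, Cr2 did not pass, and Madcam1 had 0 UMIs in all LC tumors and at most 1 UMI in an IP + LC tumor. Cxcl13 had, per 1000 UMIs of the B cell markers, 70.3, 82.3 and 26.5 UMIs in the LC tumors and 636, 688 and 580.2 UMIs in the IP + LC tumors. Macrophage markers, by contrast, were higher in the IP + LC group for 4 of 9 genes. Against that list, Cxcl13 had 6.61, 28.2 and 11.5 UMIs per 1000 in the LC tumors and 10.8, 20.8 and 33.4 in the IP + LC tumors, and the groups overlapped. The part of either cell type in the level of Cxcl13 was not tested.

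Cxcl15 and Cxcl13 lie on the same strand of chromosome 5 with 5153883 bases between them, and moved in opposite directions. The 250 bases before the RefSeq start of each gene (GRCm38.p6) are shown to let the promoters of the most strongly lowered abundant ligand and of a raised ligand be compared. Capitals mark matches to 3 motifs, the TATA box TATAAA, the STAT element TTCNNNGAA and the NKX2-1 core CTCAAG, searched on both strands.
Cxcl15, chr5:90794284-90794533, plus strand: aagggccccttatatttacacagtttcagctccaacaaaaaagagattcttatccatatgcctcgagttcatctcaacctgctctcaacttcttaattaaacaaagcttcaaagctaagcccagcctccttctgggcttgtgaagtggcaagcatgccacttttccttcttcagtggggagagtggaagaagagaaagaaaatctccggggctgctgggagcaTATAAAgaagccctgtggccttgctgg
Cxcl13, chr5:95956689-95956938, plus strand: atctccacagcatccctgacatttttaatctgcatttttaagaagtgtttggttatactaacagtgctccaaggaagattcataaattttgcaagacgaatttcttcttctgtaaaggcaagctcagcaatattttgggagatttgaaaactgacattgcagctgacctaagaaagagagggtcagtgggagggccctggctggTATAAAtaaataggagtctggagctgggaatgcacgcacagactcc

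Each of the 2 windows held 1 match to TATAAA, with its first base at position -27 in Cxcl15 and -46 in Cxcl13 from the start, and no match to the other motifs. TATAAA occurred in 12.4% of 32817 promoter windows of this length, TTCNNNGAA in 7.01% and CTCAAG in 13.3%. Of the 8 genes of the set with an entry, 3 held TATAAA (Cxcr4 was the other), 2 held TTCNNNGAA (Cxcl14 and Ccl17) and 0 held CTCAAG. Matches to different motifs did not overlap. A match describes the letters and not a bound site. Cxcl16 and Ccr7 had no entry.

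Ccl17 is a chemokine of dendritic cells that acts on CCR4 of T helper 2 and regulatory T cells. The gene (ENSMUSG00000031780) lies on chromosome 8 from 94810453 to 94812036 on the plus strand. It had 52.6, 15.3 and 22.8 CPM in the LC tumors (31, 20 and 28 UMIs) and 4.99, 6.30 and 12.8 CPM in the IP + LC tumors (7, 11 and 18 UMIs). Every IP + LC tumor lay below every LC tumor, and LC replicate 1 was the highest. The level was 3.46-fold lower in the IP + LC group (log2FC -1.79, standard error 0.52, adjusted p = 0.0334). Leaving out LC replicate 1 gave -1.26 (adjusted p = 0.0155). The call was lost when IP + LC replicate 1 (adjusted p = 0.123) or IP + LC replicate 2 (0.136) was left out.

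The other genes of this axis were near or below the test's filter. Ccl22, which shares the receptor CCR4 with Ccl17 and is likewise made by dendritic cells, had 19, 11 and 8 UMIs in the LC tumors and 15, 27 and 21 UMIs in the IP + LC tumors. Its log2FC was 0.05 with a 95% interval from -1.15 to 1.25. Ccr4 had at most 2 UMIs in any tumor and was not tested. The summed level of 6 markers of mature dendritic cells, led by Socs2, Fscn1 and Relb, was 222 to 284 CPM in the LC tumors and 262 to 307 CPM in the IP + LC tumors, and Fscn1 and Relb were higher. Of 5 tested markers of conventional dendritic cells 1 was higher and 1 was lower. H2-DMb2, Clec9a and Zbtb46 were the most abundant of that list. Ccl17 had 53.8 to 237 UMIs per 1000 of the mature markers in the LC group and 19.1 to 41.9 in the IP + LC group, and 139.9 to 704.5 against 83.3 to 130.4 per 1000 of the conventional markers. In both ratios the groups did not overlap. Fscn1, which was 3.64-fold higher with IP + LC, adds to the mature sum, and the ratio without it was not tested.

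Cxcr4, the receptor of CXCL12, is carried by most leukocytes and by some endothelial and tumor cells. The gene (ENSMUSG00000045382) lies on chromosome 1 from 128588199 to 128592293 on the minus strand. It had 11.9, 46.6 and 47.2 CPM in the LC tumors (7, 61 and 58 UMIs) and 17.1, 23.5 and 12.1 CPM in the IP + LC tumors (24, 41 and 17 UMIs). LC replicate 1 was the lowest of all 6 tumors, and the other LC tumors were above every IP + LC tumor. Its log2FC was -1.10 (standard error 0.43, adjusted p = 0.0885), or 2.14-fold lower. Without LC replicate 1 it was -1.40 (adjusted p = 0.000341), and the call was lost when any other tumor was left out, with adjusted p-values of 0.292 and 0.246 without LC replicates 2 and 3 and of 0.228, 0.14 and 0.266 without IP + LC replicates 1, 2 and 3.

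Neutrophils are among the cells that carry the receptor. Of 6 tested neutrophil markers, led by S100a9, S100a8 and Retnlg, these 3 were lower, with a summed level of the list of 796 to 1879 CPM in the LC tumors and 154 to 326 CPM in the IP + LC tumors. Csf3r, Cxcr2 and Mmp8 did not pass, with log2FC values of -0.23, -0.29 and -0.79. Cxcr4 had, per 1000 UMIs of the neutrophil list, 14.9, 50.3 and 25.1 UMIs in the LC tumors and 111, 91.9 and 37.2 UMIs in the IP + LC tumors. The groups overlapped in this ratio. Against the B cell markers, Cxcr4 had 54.7 to 171 UMIs per 1000 with LC and 80.2 to 436 with IP + LC, and against the endothelial markers 6.44 to 15.11 and 15.07 to 39.2, and the groups overlapped in both. The part of these cells in the lower level was not tested.

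The ratio of Cxcl12 to Cxcr4 molecules within a tumor does not depend on how libraries are scaled. It was 7.57, 2.48 and 2.29 in the LC tumors and 5.21, 4.41 and 13.6 in the IP + LC tumors. The groups overlapped because of LC replicate 1. On the log2 scale the means differed by 0.96 (1.81 ± 0.96 against 2.76 ± 0.88, SD, n = 3, two-sided exact permutation p = 0.3, where 0.1 is the smallest value that 3 against 3 tumors allow). The difference was 1.51 without LC replicate 1, 0.71 and 0.65 without LC replicates 2 and 3, and 0.45 without IP + LC replicate 3. Ackr3, the atypical receptor that removes CXCL12, had a log2FC of 0.21 (95% interval -0.25 to 0.67, adjusted p = 0.479). Dpp4, a peptidase that inactivates CXCL12 by cleavage, fell from 68.3 ± 18.3 to 21.7 ± 1.53 CPM (SD, n = 3), with a log2FC of -1.70 (adjusted p = 0.00221).

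Cxcr6, the receptor of CXCL16 on tissue-resident T cells and natural killer T cells, was the least abundant tested gene of the set in the LC tumors. The gene (ENSMUSG00000048521) lies on chromosome 9 from 123806475 to 123811760 on the plus strand. It had 3, 5 and 12 UMIs in the LC tumors and 14, 12 and 20 UMIs in the IP + LC tumors, or 5.09, 3.82 and 9.77 against 9.98, 6.88 and 14.3 CPM. The groups overlapped. Its log2FC was 0.66 with a 95% interval from -0.40 to 1.71 (adjusted p = 0.33), which also contains the value of Cxcl16. It was 0.58 without LC replicate 1 (adjusted p = 0.331). The log2 ratio of Cxcl16 to Cxcr6 differed by 0.47 between the groups (two-sided exact permutation p = 0.6, n = 3), but it fell outside the rule for ratios, which asked for more than 3 UMIs of both genes in every tumor. Of 8 tested T cell markers, led by Trbc2, Trac and Cd3d, 0 passed in edgeR and 0 had an unadjusted p below 0.05. Their summed level was 163 to 233 CPM in the LC tumors and 147 to 285 CPM in the IP + LC tumors. Against them, Cxcr6 had 31.2, 16.4 and 49.0 UMIs per 1000 with LC and 68.0, 26.9 and 50.0 with IP + LC, and the groups overlapped.

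Ccr7 guides naive T cells, central memory T cells and mature dendritic cells to lymph nodes along CCL21 and CCL19. The gene (ENSMUSG00000037944) lies on chromosome 11 from 99144196 to 99155077 on the minus strand. It had 47.5, 53.5 and 48.9 CPM in the LC tumors (28, 70 and 60 UMIs) and 20.7, 38.96 and 33.5 CPM in the IP + LC tumors (29, 68 and 47 UMIs). The LC tumors were close to each other, and every IP + LC tumor lay below them. The level was 1.62-fold lower (log2FC -0.70, standard error 0.26, adjusted p = 0.0739). Without LC replicate 1 it was -0.71 (adjusted p = 0.0196). The call was lost without LC replicate 2 (adjusted p = 0.203), LC replicate 3 (0.132), IP + LC replicate 1 (0.247) or IP + LC replicate 3 (0.159).

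Markers shared by naive and central memory T cells were lower in the IP + LC group for 3 of 5 genes, with Klf2 and S1pr1, which are also endothelial genes, the most abundant. Their summed level was 406 to 662 CPM in the LC tumors and 194 to 297 CPM in the IP + LC tumors. Ccr7 had, per 1000 UMIs of these markers, 117, 80.8 and 76.5 UMIs in the LC tumors and 107, 174 and 113 UMIs in the IP + LC tumors, and the groups overlapped. Against the T cell markers, Ccr7 had, per 1000 UMIs, 292, 229.5 and 245 UMIs against 141, 152 and 117.5 UMIs, and per 1000 UMIs of the mature dendritic cell markers 214, 188 and 172 UMIs against 79.0, 129.5 and 109 UMIs. In both of these ratios every IP + LC tumor lay below every LC tumor. The mature dendritic cell sum rests in part on Fscn1, with 39, 20 and 25 UMIs in the LC tumors and 131, 224 and 162 UMIs in the IP + LC tumors. The ratio without Fscn1 was not tested.

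The ligands of CCR7 were hardly counted. Ccl21a (ENSMUSG00000094686), on chromosome 4 from 42772860 to 42773993 on the minus strand, had 1, 0 and 0 UMIs in the LC tumors and 0, 0 and 1 UMIs in the IP + LC tumors. This is below the limit of detection in every library, and no fold is given. The count cannot be read as a level of the chemokine, since the whole transcript (100%) was matched at 95% identity or more by transcripts of 4 other genes, Ccl21b, Gm10591, Gm13304 and Gm21541, with up to 99.5% identity. Of these 4 genes, 0 matched a row of the tables used here, so reads assigned to them were not analysed here. How the counting treated reads that match several genes is not given in the sources used here. Lymphatic endothelial cells are the usual source of Ccl21a. Their defining transcription factor Prox1 had 0, 5 and 7 UMIs in the LC tumors and 0, 9 and 9 UMIs in the IP + LC tumors and was not tested. Pdpn, Lyve1 and Mmrn1 were the most abundant of 6 markers, whose summed level was 249 to 569 CPM with LC against 214 to 309 CPM with IP + LC, and Lyve1 and Mmrn1 were lower. Pdpn is also made by type 1 alveolar cells and Lyve1 by some macrophages. Ccl19 had 0, 1 and 1 UMIs in the LC tumors and 0 UMIs in the 3 IP + LC tumors. Ackr4, an atypical receptor that removes CCL19 and CCL21, had 3, 14 and 20 UMIs in the LC tumors and 2, 2 and 1 UMIs in the IP + LC tumors. It had too few UMIs for the test.

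**Figure D3:**
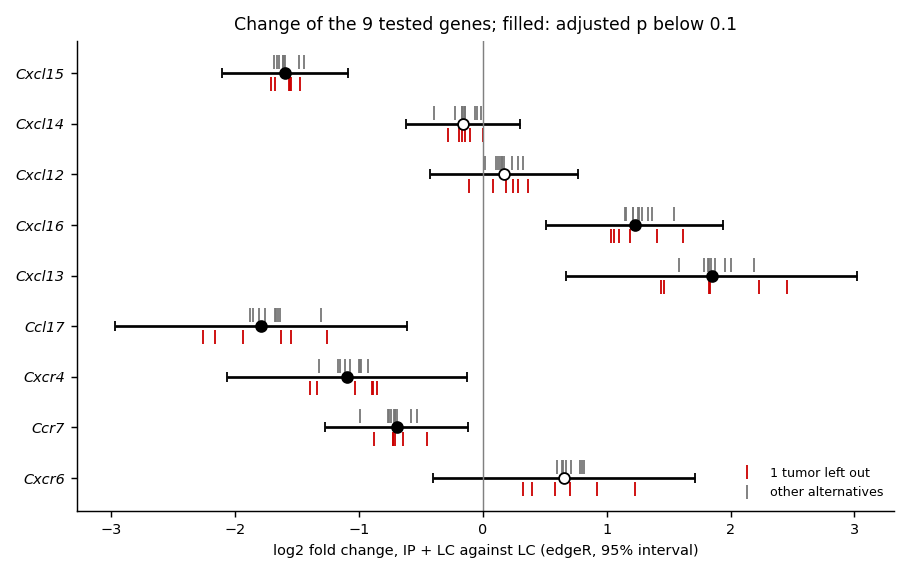
Log2FC of the 9 tested genes between the IP + LC and LC groups (edgeR, black point with 95% interval, filled where the adjusted p-value was below 0.1), with the values after leaving out 1 tumor (red ticks) and under the other alternatives (grey ticks). The interval of Cxcl15 runs from -2.11 to -1.09, and the intervals of Cxcl12, Cxcl14 and Cxcr6 include 0.

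**Figure D4:**
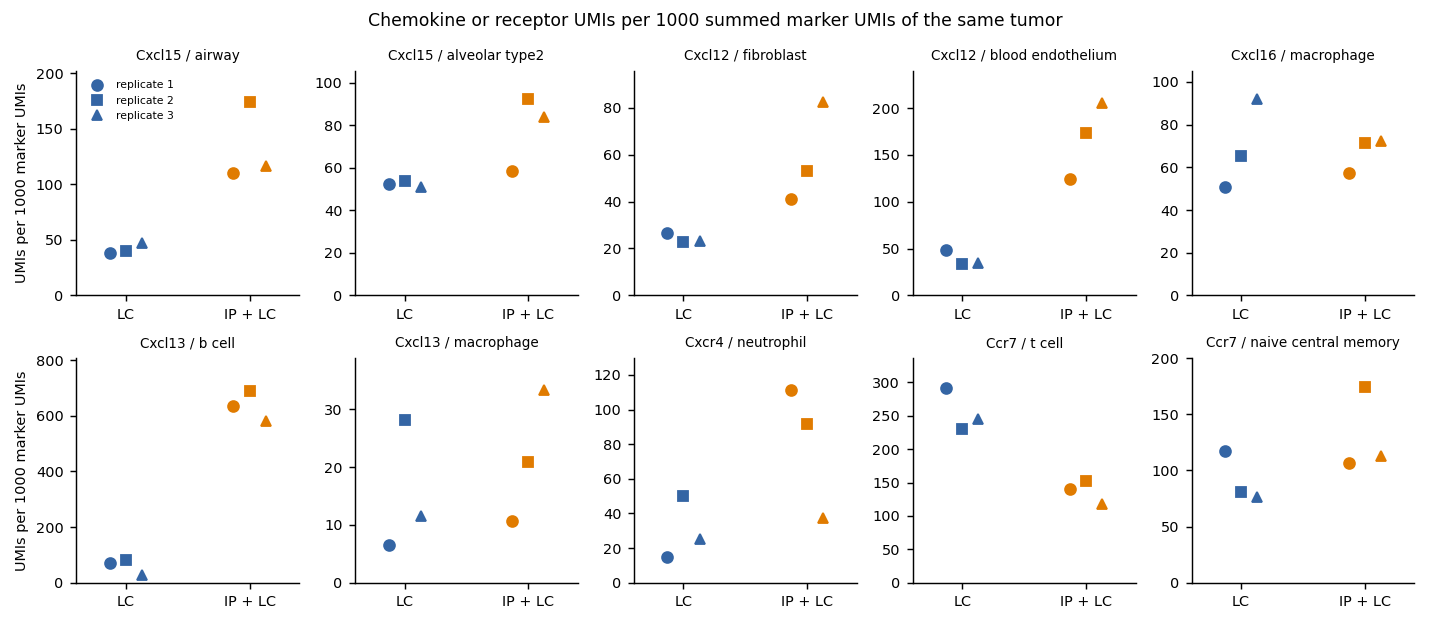
UMIs of a chemokine or receptor gene per 1000 summed UMIs of a marker list in the same tumor, 1 point per tumor, for 10 of the 18 pairs of gene and list computed. A sum is weighted towards the most abundant genes of its list, such as Scgb1a1, Sftpc and Inmt. The groups do not overlap for Cxcl15 and Cxcl12 against the lists shown, for Cxcl13 against the B cell list and for Ccr7 against the T cell list, and they overlap for Cxcl16 and Cxcl13 against the macrophage list, for Cxcr4 against the neutrophil list and for Ccr7 against the naive and central memory list.

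The rest of the homeostatic chemokine systems was followed through a list of 48 further ligands, receptors, atypical receptors, processing enzymes, signaling proteins and regulators of lymphoid tissue. Of these, 46 were matched by symbol and 32 had enough UMIs for the test, of which 9 were higher and 5 were lower in the IP + LC group and 18 did not pass. Over all tested genes, 16.8% were higher and 19.6% were lower. The median log2FC of the 32 genes was 0.24, against 0.02 over all tested genes. The counts depended on single tumors, and those over all genes moved with them. Without LC replicate 1, 14 genes of the list were higher and 10 were lower, while the counts over all genes went from 1885 to 3324 and from 2203 to 3367. The numbers were 5 and 3 when LC replicate 2 was left out. Only 4 genes were higher without IP + LC replicate 2, and 3 were lower without IP + LC replicate 1. The calls of 5 of the 14 genes, Cxcl17, Xcl1, Adam17, Dpp4 and Nfkb2, were kept without each tumor in turn.

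Among the ligands, Xcl1, which attracts cross-presenting dendritic cells and is made by natural killer cells and cytotoxic T cells, rose from 4.62 ± 1.90 to 18.7 ± 4.65 CPM (SD, n = 3), with a log2FC of 2.11 (adjusted p = 0.00583). Its receptor Xcr1 had 2 to 13 UMIs per tumor and was not tested. Cxcl17, a chemokine of mucosal epithelium, fell from 112 ± 30.8 to 50.2 ± 3.80 CPM, with a log2FC of -1.18 (adjusted p = 0.00781). Cx3cr1, the fractalkine receptor of monocytes and macrophages, had 19, 24 and 22 UMIs in the LC tumors and 31, 89 and 105 UMIs in the IP + LC tumors, with a log2FC of 1.18 (adjusted p = 0.0772). Its CPM values overlapped between the groups, at 17.9 to 32.2 with LC and 22.1 to 74.9 with IP + LC. Its call was lost without LC replicate 2, LC replicate 3, IP + LC replicate 2 or IP + LC replicate 3, with adjusted p-values of up to 0.247, and in 4 of 11 other alternatives. The call of Cxcr5 was lost without LC replicate 2 or without any IP + LC tumor.

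Of the 5 proteases that cut chemokines or their membrane forms, Adam17, which sheds fractalkine, rose from 37.1 ± 6.79 to 74.1 ± 2.56 CPM (SD, n = 3), with a log2FC of 1.01 (adjusted p = 0.00864). Adam10, the sheddase of CXCL16, had 97.4 ± 16.2 CPM with LC against 139.64 ± 12.3 CPM with IP + LC. All IP + LC tumors lay above the LC tumors, but the adjusted p-value was 0.106. Mmp2 and Mmp9 did not pass.

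Of 13 signaling genes, 4 were higher and 2 were lower, beside 16.8% and 19.6% of all tested genes. The inhibitory G protein subunit Gnai2, through which these receptors signal, had a log2FC of 0.67 (adjusted p = 0.031), and Dock2, which drives the migration of lymphocytes, had 0.96 (adjusted p = 0.0465). The β-arrestins, which bind activated receptors, moved apart. Arrb2 rose from 39.8 ± 15.6 to 77.4 ± 6.06 CPM and Arrb1 fell from 89.95 ± 16.9 to 50.03 ± 6.31 CPM (SD, n = 3), with log2FC values of 1.01 (adjusted p = 0.0236) and -0.87 (adjusted p = 0.0202). The regulators of G protein signaling also differed. Rgs2 had a log2FC of -1.06 (adjusted p = 0.0246), Rgs16 was counted with 3, 3 and 0 UMIs in the LC tumors and 11, 15 and 12 UMIs in the IP + LC tumors (adjusted p = 0.0475), and Rgs1 did not pass.

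These 6 calls did not all hold without single tumors. Those of Gnai2, Arrb1 and Arrb2 were each lost without 1 tumor, IP + LC replicate 2, IP + LC replicate 1 and LC replicate 2, with adjusted p-values of 0.111, 0.109 and 0.112. That of Rgs2 was lost without LC replicate 2, IP + LC replicate 1 or IP + LC replicate 2 (up to 0.118) and that of Dock2 without LC replicate 3, IP + LC replicate 2 or IP + LC replicate 3 (up to 0.144). That of Rgs16 was kept only without LC replicate 1, and reached 0.16 without another tumor. Among the other alternatives, Rgs16 lost its call in 1 of 9 and Dock2 in 1 of 10.

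Lymphotoxin and the alternative NF-κB pathway, in which RELB and NFKB2 act below the lymphotoxin β receptor, drive CXCL13, CCL19 and CCL21 in lymphoid stroma. Of 6 tested genes of this list, Nfkb2 and Relb were higher and the other 4 did not pass, beside 16.8% higher of all tested genes. Nfkb2 rose from 38.0 ± 21.5 to 95.8 ± 7.24 CPM and Relb from 22.5 ± 4.39 to 39.6 ± 5.71 CPM (SD, n = 3), with log2FC values of 1.41 (adjusted p = 0.0143) and 0.81 (adjusted p = 0.0364). The call of Relb was lost without LC replicate 2, IP + LC replicate 1 or IP + LC replicate 2, with adjusted p-values of up to 0.156. Ltb, the membrane-bound ligand, had a log2FC of -0.66 (adjusted p = 0.145) and its receptor Ltbr one of 0.26 (adjusted p = 0.343). Whether these changes bear on Cxcl13 was not tested.

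**Figure D5:**
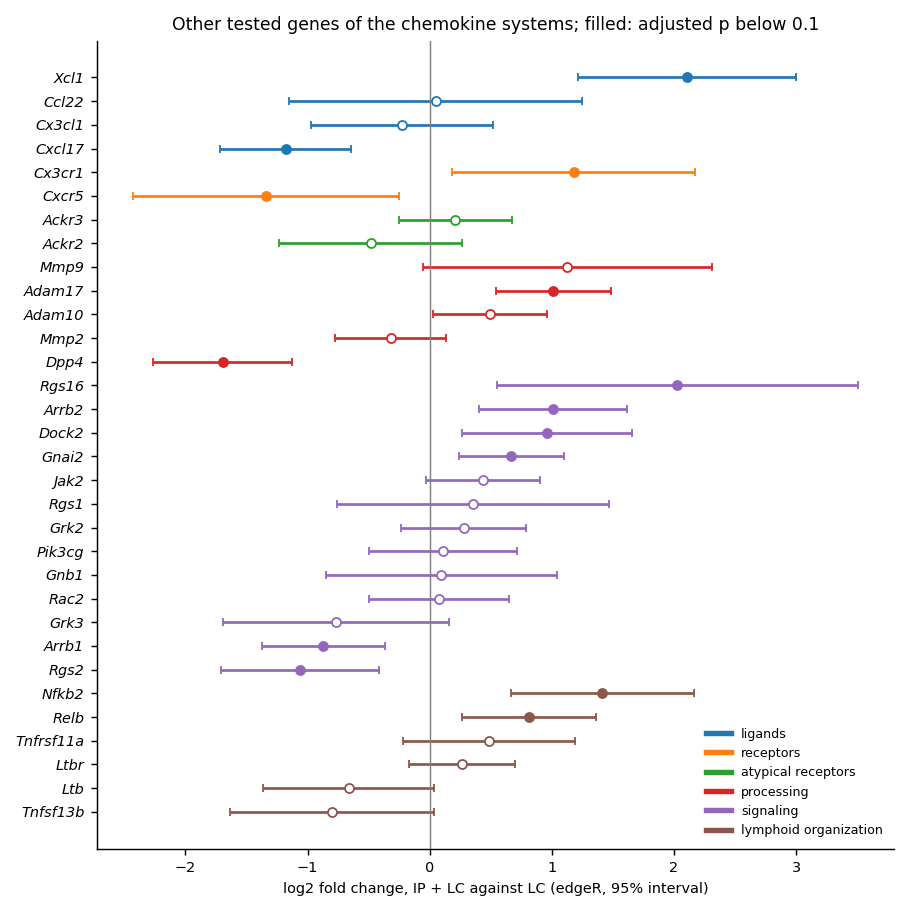
Log2FC with 95% interval (edgeR) of the 32 other tested genes of the homeostatic chemokine systems, colored by role and filled where the adjusted p-value was below 0.1. Xcl1 and Rgs16 lie farthest to the right, at 2.11 and 2.03, and Dpp4 farthest to the left, at -1.70.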

How the data were processed

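Bulk RNA barcoding libraries were made with an oligo-dT primer that carries a UMI, from 3 LC and 3 IP + LC tumors. According to the methods and the submitters' processing notes, the authors extracted UMIs with UMI-tools 1.1.1, trimmed reads with Trim Galore 0.6.7, aligned them to GRCm38 with HISAT2 2.2.1, assigned them with featureCounts 2.0.1 and counted the different UMIs of each gene. The deposited values were these raw UMI counts. The annotation release, the use of strand and the treatment of multiply aligned reads are not given in the sources used here.

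Genes were kept by filterByExpr (minimum count 10, minimum total 15), scaled by TMM and tested with the quasi-likelihood method of edgeR 4.0.16 in R 4.3.3, IP + LC against LC, with no block. P-values were adjusted by Benjamini-Hochberg over all 11240 tested genes with a limit of 0.1. Standard errors were the log2 fold change divided by the square root of F. The labels number the tumors without naming mice, so p-values measure the spread between these samples. The procedure was tested on simulated counts.

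The 10 genes, the list of 48 further genes and the marker lists were chosen with earlier results of these data known. All 10 genes, the further genes past the limit, 6 cognate partners, and the 3 most abundant genes of each marker list set beside a result were named, except for some that are not reported here. The ratios to marker lists were chosen after seeing the data. Positions came from GENCODE M21, and near-identical transcripts from blastn 2.17.0+ (matches of at least 81 bases and 95% identity). Promoter windows came from RefSeq. DESeq2 1.42.0, limma 3.58.1, other scalings, filters, thinning to 592733 UMIs, a replicate block and leaving out each tumor were the alternatives.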

Additional observations from a re-analysis of the deposited data

How the results depend on the processing

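Over 139 alternatives for the log2 fold changes of the 9 genes, 116 kept direction and side of the limit, 22 lost the call and 1 turned the sign (Cxcl12, -0.11 to 0.37 without a tumor, below 0 without IP + LC replicate 3). Cxcl15 lay between -1.71 and -1.44 and Cxcl16 between 1.03 and 1.62. The 2 higher genes became 1 with at least 10 UMIs in every library, which left 5 of the genes, and 1 to 2 without a tumor. The 4 lower genes became 2 with library size only, DESeq2, a limit of 0.05 or thinning, and 1 to 4 without a tumor. With at least 10 UMIs in every library, Ccl17 and Cxcr4 were not tested, and Cxcl15 and Ccr7 kept their calls (edgeR, adjusted p = 0.00151 and 0.0614). Of the further genes, 9 higher became 5 after thinning, 13 with sample quality weights in limma, 12 with library size only and 4 to 14 without a tumor, and 5 lower became 8 with the same weights and 3 to 10 without a tumor. Over all tested genes, 1885 higher became 1054 after thinning, 3180 with these weights and 2520 with library size only. The 2203 lower became 1359, 3053 and 1800 in the same order. Library size alone moved the median of all genes from 0.02 to 0.18. There, Cxcr4 was -0.93 (adjusted p = 0.118) and Ccr7 -0.53 (0.154). Ccl17 lost its call after thinning (-1.66, adjusted p = 0.125), and so did Cxcr4 (-1.17, adjusted p = 0.155). Cxcr4 and Ccr7 also lost theirs under the DESeq2 Wald test (adjusted p = 0.133 for each). In limma voom Cxcr4 was lost (adjusted p = 0.15), and in edgeR with no filter on low counts Ccr7 was lost (0.179). With a replicate block, Cxcr4 was -0.99 (adjusted p = 0.14) and 3 genes were lower, and no other call among the 9 genes changed. Deviations of tumors with the same number correlated at 0.0261, -0.12 and 0.112, and those with different numbers at -0.1415 to 0.126. With 3 tumors per group, these values cannot decide whether the numbers pair the tumors. The lowest count in a tumor was 3 UMIs for Cxcr6, 7 for Cxcr4, 7 for Ccl17 and 9 for Cxcl13, and the part of depth in their calls was not tested beyond thinning.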

Other observations

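All 8 alveolar macrophage markers were lower in the IP + LC tumors, with Chil3, Fabp4 and Car4 the most abundant and a summed level of 1712 to 2098 CPM in the LC group and 231 to 468 CPM in the IP + LC group, while 4 of 9 general macrophage markers were higher. Of 6 type 1 alveolar markers, 5 were lower, Ager and Hopx among them, and Cldn18 did not pass, and all 4 tested mesothelial markers were lower, led by Krt19, Msln and Upk3b. Of 4 tested natural killer cell markers, Gzma and Klrb1c were lower and Klrd1 and Prf1 did not pass, with a summed level of the list of 119 to 197 CPM in the LC group and 89.8 to 102 CPM in the IP + LC group, whereas Xcl1 was higher. Of 6 proliferation markers, of which Top2a, Cdk1 and Cenpe were the most abundant, 5 were higher in the IP + LC group, and Cdk1 did not pass. Car4 is also in the list of blood endothelial markers.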
